A study of Mus musculus with 10 samples.

Results

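The genes described here code for the proteins that take up glucose, break it down to pyruvate, restrain the mitochondrial complex that uses pyruvate and carry lactate across the cell membrane. They were chosen by symbol, and all 33 were found among the 24015 genes counted by RNA sequencing in a mouse model of leukemia. MAF9 cells are bone marrow cells of C57BL/6 mice transduced with MLL-AF9, the fusion gene of a translocation that drives acute leukemia. They grew in IMDM with 15% FBS and 10 ng/ml IL-3, and every library came from cells carrying the fusion gene. Cells were kept for 4 days with DMSO, the solvent control, or with 1 of 4 inhibitors. MM-401 (labelled MM401) blocks binding between MLL1 and WDR5, EPZ5676 (EPZ) inhibits the histone methyltransferase DOT1L, and MI-2-2 (MI) blocks MENIN. The fourth inhibitor is called iBET, as in the labels. Each of the 5 conditions had 2 libraries, numbered replicate 1 and replicate 2. The study's methods call the duplicates biological samples, but neither they nor the labels say what a replicate number marks. The p-values measure the spread between these libraries.

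Glycolysis splits 1 glucose molecule into a pair of pyruvate molecules in the cytosol. Pyruvate then enters the mitochondria, where the pyruvate dehydrogenase complex feeds it into respiration, or lactate dehydrogenase turns it into lactate, which leaves the cell with a proton. Fast-dividing blood cells and leukemia cells use much glucose this way, and mature neutrophils depend on glycolysis. Many of these genes are also known targets of the hypoxia-inducible factor HIF1 and of MYC, and their RNA rises when oxygen is short.

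Library totals lay between 20394762 and 29473127 counted reads. DMSO replicate 2 stood apart from the other 9 libraries. Reads of 4 genes of the Y chromosome (Uty, Kdm5d, Ddx3y and Eif2s3y) summed to 3630 in that library and to between 0 and 2 in any other, and Xist, the RNA of the inactive X chromosome, had 97 reads there and 4.76 CPM by total counts, against 928 to 3051 CPM in the others. Where leaving that library out ended a call against DMSO, or moved a fold change much, the value without it is given. The cells' myeloid identity was checked on marker lists. Among 10 lymphoid markers, 5 were at 0 in every library (Cd3e, Cd8a, Ms4a1, Pax5 and Ncr1), and the list summed to at most 3.21 CPM in any library. The 8 mast cell and 10 stromal markers summed to at most 51.5 CPM. CPM, the usual depth-normalized read count, was scaled with edgeR's TMM factors unless stated otherwise.

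Of the 33 genes, 30 had enough reads to be tested. The 3 others were Pdk4, a pyruvate dehydrogenase kinase of fasting muscle and liver with no read in any library, the neuronal enolase Eno2 with 0 to 0.291 CPM, and Ldhb, the heart form of lactate dehydrogenase, with 0 to 1.18 CPM. Together the 33 genes took 1.58% and 1.05% of the counted reads in the DMSO libraries, 1.18% and 0.774% with MM-401, 1.36% and 0.828% with EPZ5676, 1.26% and 0.803% with MI-2-2, and 0.877% and 0.639% with iBET, replicate 1 first in each pair. Replicate 2 had the lower share in each of the 5 conditions, and the iBET libraries had the lowest share among libraries of the same number.

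Levels per length put the transcripts for the forms of each enzyme in order, but do not measure protein or activity. They are given as RPKM, the CPM by total counts per kilobase of exon, with exon lengths of GENCODE M21, as the median over the 10 libraries. Among the glucose transporters, Slc2a1 (GLUT1) stood at 50 RPKM, Slc2a3 (GLUT3) at 17.7 and Slc2a6 at 12.1. The lowest and highest Slc2a3 libraries were at 0.435 and 117 RPKM, so its place in the order changed with the condition. Hk3, the hexokinase of myeloid cells, was at 245 RPKM, above Hk2 at 39.7 and Hk1 at 36.3, whose ranges over the libraries overlapped. Of the phosphofructokinase subunits, the liver form Pfkl was at 50 RPKM, the platelet form Pfkp at 22.0 and the muscle form Pfkm at 9.67. Aldoa was the main aldolase at 387 RPKM, against 13.9 for Aldoc. Ldha was the main lactate dehydrogenase at 326 RPKM, against 0.0556 for Ldhb. Slc16a3 (MCT4), the lactate exporter of glycolytic cells, was at 73.9 RPKM, and Slc16a1 (MCT1), which carries lactate and pyruvate both ways, at 23.0. Their ranges overlapped, and in iBET replicate 2 the order was reversed, with Slc16a3 at 16.3 RPKM and Slc16a1 at 23.7. Of the pyruvate dehydrogenase kinases, which switch the complex off, Pdk1 was at 22.8 RPKM and Pdk3 at 21.6, with overlapping ranges, and Pdk2 at 0.284.

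A few genes of the pathway were counted far below what such abundant enzymes usually show. Gapdh, the dehydrogenase of glycolysis and a common reference gene, had a median of 1.96 RPKM, Eno1, the main enolase of most cells, 0.908 and Pgam1, a phosphoglycerate mutase, 16.6. These genes have near-identical copies in the genome. Of the 50-base words in their longest protein-coding transcripts, 82.5% occurred in transcripts of other genes for Gapdh, 72.2% for Eno1, 68.0% for Pgk1 (phosphoglycerate kinase) and 41.5% for Pgam1. Pkm, the pyruvate kinase of most cells, had 34.4%, Pfkfb2 25.1% and the glucose-6-phosphate isomerase Gpi1 25.3%. Of the genes ordered above, Ldhb had 27.0%, Pfkp 17.1%, Ldha 16.6% and Aldoa 13.5%. How reads that match several genes were treated is not given in the sources used here, so the counts of Gapdh, Eno1, Pgk1 and Pgam1 are uncertain. No such word was shared for Slc2a3, Slc2a6, Pfkfb4, Slc16a1, Slc16a3, Pdk1, Pdk2 and Pdk3.

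**Figure D1:**
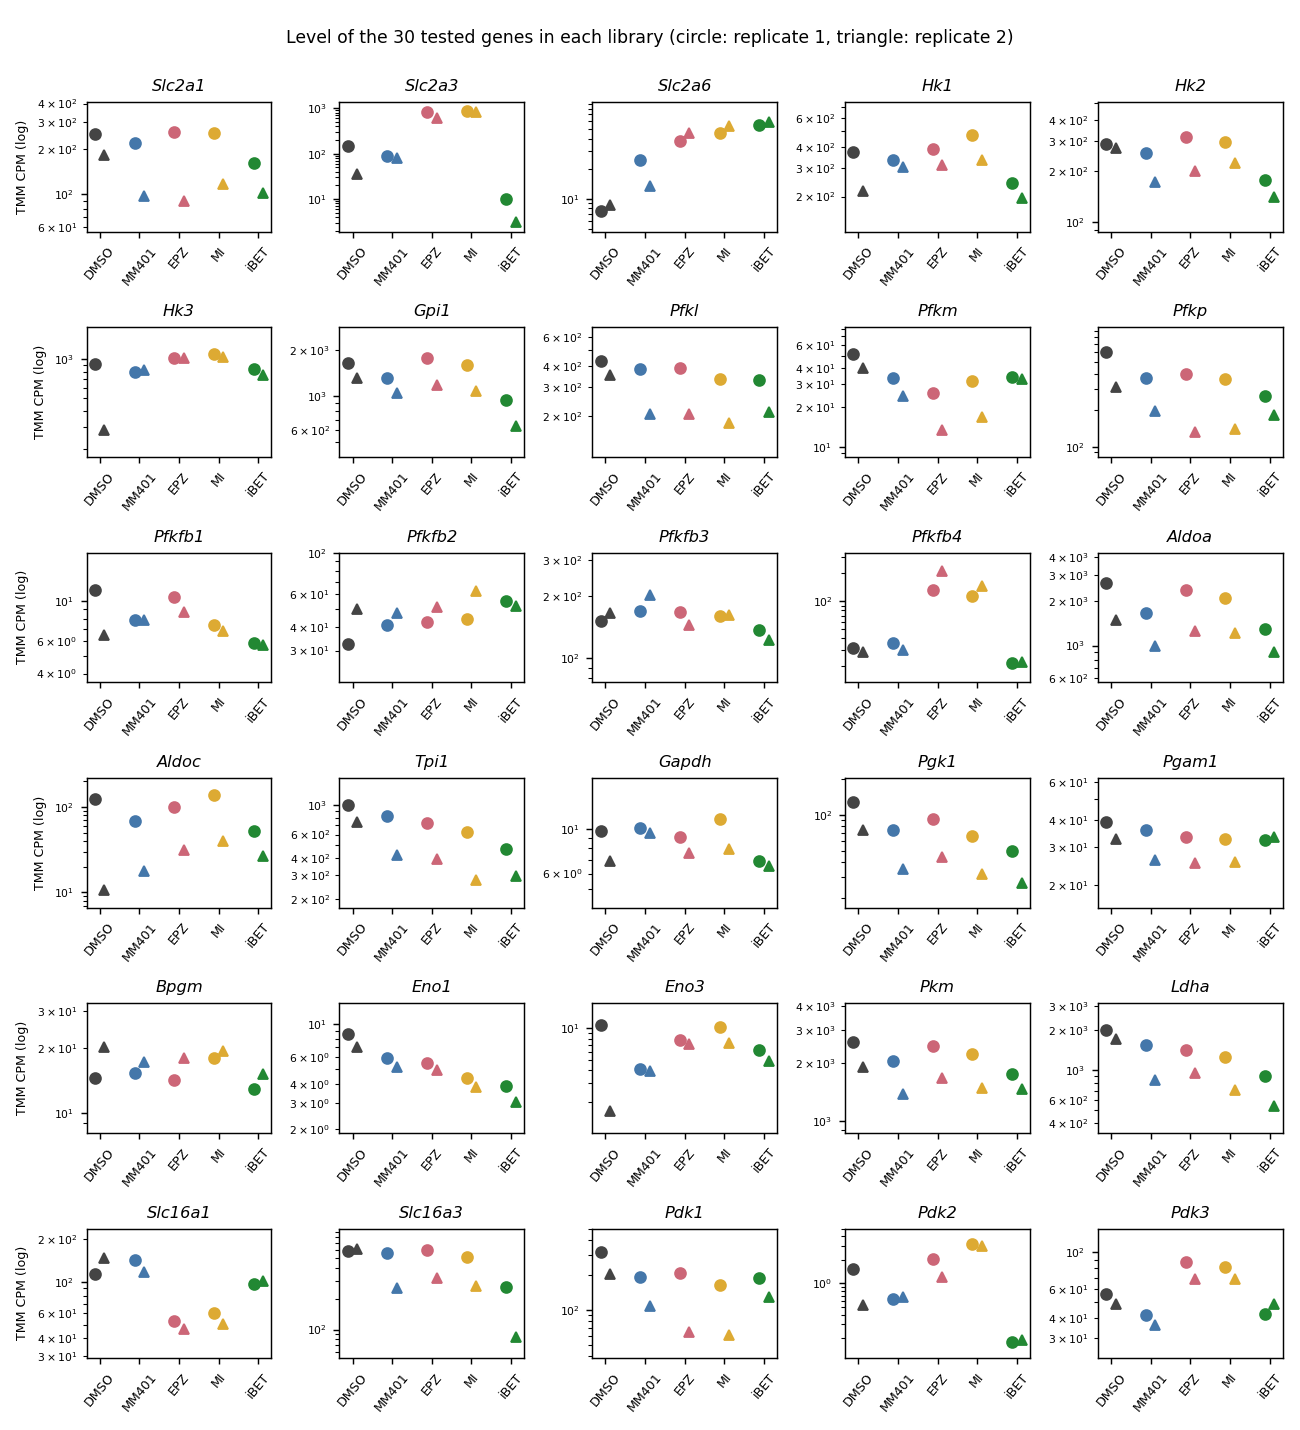
TMM-normalized CPM (log axis) of the 30 tested genes in the 10 libraries, grouped by condition, with circles for replicate 1 and triangles for replicate 2. Slc2a3 and Pfkfb4 sat high in the 4 EPZ and MI libraries, Slc16a1 sat low in them, and triangles lay below circles for many enzymes.

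The first question was how each inhibitor changed these genes against DMSO. DOT1L and MENIN inhibition gave a few large changes. Transcripts of Slc2a3, Slc2a6, Pfkfb4 and Pdk3 rose with both inhibitors and those of Slc16a1 fell with both, while most enzymes between glucose and pyruvate did not pass the test. With EPZ5676, 6 of the 30 tested genes passed a false discovery rate (FDR) of 0.05 in edgeR's quasi-likelihood test, where 38.1% of all 12971 tested genes did. Of these, 4 rose (18.7% of all tested genes) and 2 fell (19.4%). With MI-2-2, 7 passed (41.4% of all), 5 upward (20.2%) and 2 downward (21.2%). The median log2 fold change of the 30 genes was -0.12 with EPZ5676 and -0.18 with MI-2-2, beside -0.06 and -0.05 over all genes. With scaling by total counts, which lowered the median of all genes to -0.23 and -0.21, 3 rose and 2 fell with each. That scaling called 42.9% of all tested genes with EPZ5676 and 44.8% with MI-2-2. Of those called, 34.7% and 37.1% rose.

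Slc2a3, a high-affinity glucose transporter of neurons and white blood cells, changed most. It stood at 150 and 36.1 CPM in the DMSO libraries (replicates 1 and 2), 842 and 628 with EPZ5676 and 873 and 815 with MI-2-2. All 4 treated libraries lay above both DMSO libraries, which were themselves far apart. The log2 fold change was 2.98 (SE 0.69, adjusted p = 0.0118) with EPZ5676 and 3.18 (SE 0.69, adjusted p = 0.00864) with MI-2-2. Without DMSO replicate 2 these were 2.32 and 2.53, and without DMSO replicate 1 they were 4.35 and 4.55, all called. Both calls were lost when only the 2 groups compared were fitted, where 9.34% and 9.12% of all tested genes passed.

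Slc2a6, a hexose transporter of the lysosome membrane in macrophages, rose with 3 of the 4 inhibitors. It was at 7.52 and 8.73 CPM in DMSO, 37.7 and 45.7 with EPZ5676, 46.0 and 53.4 with MI-2-2, and 54.8 and 58.5 with iBET. The DMSO libraries were close to each other and every inhibitor library was higher, MM-401 included at 24.3 and 13.5, where the change did not pass. The log2 fold change was 2.36 (SE 0.27, adjusted p = 0.000966) with EPZ5676, 2.61 (SE 0.27, adjusted p = 0.000707) with MI-2-2 and 2.80 (SE 0.28, adjusted p = 0.00229) with iBET. Slc2a1, the basal transporter, did not pass in any comparison of conditions, with 251 and 181 CPM in DMSO and 90.0 to 257 with the inhibitors.

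The Pfkfb enzymes make and remove fructose 2,6-bisphosphate, the strongest activator of phosphofructokinase. Pfkfb4 alone among the 4 passed against DMSO. It was at 31.7 and 28.8 CPM in DMSO, 131 and 209 with EPZ5676 and 113 and 148 with MI-2-2, with no overlap. Its log2 fold change was 2.49 (SE 0.24, adjusted p = 0.000612) with EPZ5676 and 2.11 (SE 0.23, adjusted p = 0.000827) with MI-2-2. Pfkfb3, the form with the strongest kinase side, stayed between 122 and 203 CPM over all 10 libraries, Pfkfb2 between 32.5 and 62.8 and Pfkfb1, the liver form, between 5.74 and 11.53.

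Of the lactate carriers, Slc16a1 fell with both inhibitors. It was at 114 and 148 CPM in DMSO, 53.1 and 46.6 with EPZ5676 and 60.2 and 50.3 with MI-2-2, and the groups did not overlap. It fell by 1.39 on the log2 scale (SE 0.17, adjusted p = 0.0012) with EPZ5676 and by 1.24 (SE 0.17, adjusted p = 0.00156) with MI-2-2. Without DMSO replicate 2 the falls were 1.17 and 1.01, both called. Slc16a3 passed with neither, at 591 and 607 CPM in DMSO, 604 and 323 with EPZ5676 and 510 and 268 with MI-2-2. Both MI-2-2 libraries were below both DMSO libraries for Slc16a3 too, and the difference between the carriers was not tested. Ldha, which makes the lactate, was at 1975 and 1699 CPM in DMSO and between 707 and 1422 in these 4 treated libraries, and passed with neither.

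Of the pyruvate dehydrogenase kinases, the X-linked Pdk3 was at 56.0 and 48.2 CPM in DMSO, 87.1 and 68.6 with EPZ5676 and 81.4 and 69.0 with MI-2-2. It rose by a log2 fold change of 0.58 (SE 0.17, adjusted p = 0.0274) with EPZ5676 and 0.53 (SE 0.17, adjusted p = 0.0350) with MI-2-2. The call with EPZ5676 was lost under 4 of 17 alternatives and that with MI-2-2 under 9. Both were lost without DMSO replicate 2, at 0.50 and 0.46, with scaling by total counts and in the fit of the 2 groups alone. Pdk2, weakly expressed at 1.52 and 0.527 CPM in DMSO, was at 3.17 and 2.995 with MI-2-2, a log2 fold change of 1.57 (SE 0.51, adjusted p = 0.0387) that was lost under 11 of 17 alternatives, at 1.05 without DMSO replicate 2. Pdk1, the kinase most tied to hypoxia, was at 316 and 203 CPM in DMSO, 209 and 65.1 with EPZ5676 and 165 and 61.4 with MI-2-2, and did not pass. Eno1 and Pfkm each fell in 1 of these comparisons. Pfkm, at 51.6 and 40.2 CPM in DMSO, was at 25.8 and 13.4 with EPZ5676 and fell by 1.23 (SE 0.38, adjusted p = 0.0346). The call was lost under 7 of 17 alternatives, leaving out DMSO replicate 1 among them. Eno1, at 8.61 and 6.999 CPM in DMSO, was at 4.38 and 3.80 with MI-2-2 and fell by 0.93 (SE 0.25, adjusted p = 0.0202). The call was lost without either MI-2-2 library and in the fit of those 2 groups alone, and the counts of Eno1 are uncertain for the reason given above.

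Replicate numbers moved many of these genes, as described further on, and a fit with the replicate number as a block called more of them. It called 13 of the 30 genes with EPZ5676 (47.6% of all tested genes), 4 upward and 9 downward. With MI-2-2 it called 15 (50.6%), 6 upward and 9 downward. Under the block, Ldha fell by 0.67 with EPZ5676 and 0.97 with MI-2-2, Tpi1 (triose phosphate isomerase) by 0.70 and 1.05, Pgk1 by 0.61 and 1.09, Pdk1 by 1.09 and 1.33, Pfkp by 0.90 and 0.93, and Pfkl by 0.49 and 0.68. Each of these falls passed FDR 0.05 in that fit. Hk1, the housekeeping hexokinase, rose by 0.47 with MI-2-2. The block pairs DMSO replicate 2, which stood apart in its sex-linked reads, with the other replicate 2 libraries. Every block result against DMSO rests on that pairing, which is uncertain.

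The hexokinases and most enzymes below them did not pass against DMSO with EPZ5676 or MI-2-2. Hk3 was at 917 and 281 CPM in DMSO and 1014 to 1103 in the 4 treated libraries. Aldoa, the main aldolase, was at 2681 and 1493 CPM in DMSO and 1214 to 2366 in them. Pkm was at 2584 and 1924 CPM in DMSO and 1484 to 2473 in them, so for both enzymes the ranges overlapped. Gapdh stayed between 6.51 and 11.2 CPM over all 10 libraries, Pgam1 between 25.3 and 39.3 and Bpgm between 12.9 and 20.3.

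Genes of myeloid maturation moved with the same libraries. The counts below stand beside 18.7% of all tested genes higher and 19.4% lower with EPZ5676, and 20.2% and 21.2% with MI-2-2. The 9 neutrophil markers counted (Ltf, Camp, Ngp, Lcn2, S100a8, S100a9, Mmp8, Mmp9 and Cd177) all rose with EPZ5676 and with MI-2-2. They summed to 682 to 3676 CPM in DMSO, 51357 to 69541 with EPZ5676 and 46515 to 47375 with MI-2-2. Of 9 macrophage markers, 8 rose with each inhibitor, from a sum of 361 to 399 CPM in DMSO to 4075 to 6077 with EPZ5676 and 3153 to 4880 with MI-2-2. Of 12 leukemia and progenitor markers, 6 fell and 3 rose with each inhibitor, and their sum went from 11112 to 14339 CPM in DMSO to 6190 to 7346 with EPZ5676 and 6535 to 6562 with MI-2-2. The lower DMSO sum of the neutrophil markers was that of replicate 2, the library in which Slc2a3 and Hk3 were also lowest among DMSO and MM-401 libraries. With MM-401 the neutrophil markers summed to 4731 and 6184 CPM and with iBET to 1250 and 519. In the iBET libraries Slc2a3 was low too, at 9.94 and 3.06 CPM, but Hk3 was at 845 and 756, above its 281 in DMSO replicate 2. Slc2a6 was not lower in DMSO replicate 2, at 8.73 CPM against 7.52 in replicate 1. The part of cell maturation in the changes of Slc2a3, Slc2a6, Pfkfb4, Slc16a1 and Pdk3 was not tested. In these bulk samples, more cells of a type and more RNA per cell cannot be told apart.

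Genes next to the pathway were read from lists of their own. Over all tested genes, 18.7% rose and 19.4% fell with EPZ5676, and 20.2% rose and 21.2% fell with MI-2-2. Of 10 genes of mitochondrial pyruvate entry and the pyruvate dehydrogenase complex, 5 fell and none rose with EPZ5676, and again with MI-2-2. Dlat, the core acetyltransferase of the complex, fell by 1.08 (SE 0.10, adjusted p = 0.000618) and 0.93 (SE 0.10, adjusted p = 0.000827), and Pdhb, a subunit of its first enzyme, by 0.75 and 0.81. Of 12 pentose phosphate genes, 3 rose and 3 fell with EPZ5676, and 3 rose and 2 fell with MI-2-2. G6pdx, the entry enzyme of that pathway, rose by 0.99 and 0.98 while the ribose phosphate kinase Prps1 fell by 1.65 and 1.42. Of 17 other glycolysis and transport genes tested, 5 rose and 1 fell with EPZ5676, and 4 rose and 1 fell with MI-2-2. Adpgk, a glucokinase that uses ADP, rose by 2.76 (SE 0.25, adjusted p = 0.000523) and 1.90 (SE 0.24, adjusted p = 0.00115). Of 12 tested regulators of glycolysis genes, 4 rose and 2 fell with EPZ5676, and 5 rose and 1 fell with MI-2-2. Epas1 (HIF2A) rose by 2.23 and 2.57, and Myc fell by 1.10 and 1.44.

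**Figure D2:**
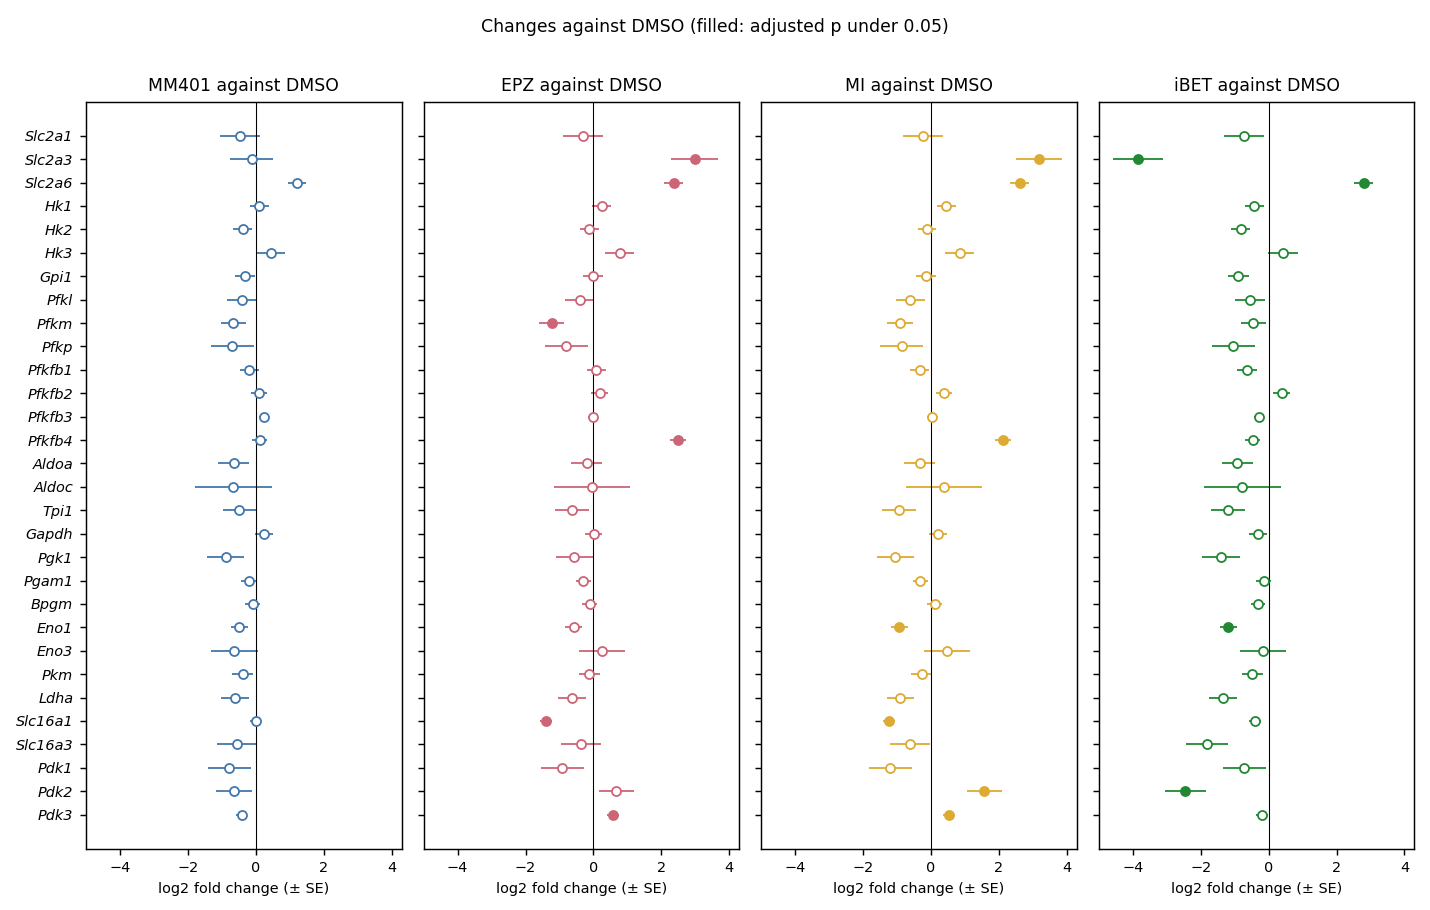
Log2 fold change against DMSO with its standard error for the 30 tested genes (rows, in pathway order) under each inhibitor (panels), filled where the adjusted p was under 0.05. Slc2a3 lay at 2.98 and 3.18 with EPZ and MI and at -3.85 with iBET, and no point was filled with MM401.

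With iBET most enzymes read lower than in DMSO, but few passed the test. The test called 4 of the 30 genes (13.9% of all tested genes), 1 upward (6.38%) and 3 downward (7.54%). The median log2 fold change over the 30 genes was -0.59, beside -0.04 over all genes. Both iBET libraries lay below both DMSO libraries for 20 of the 30 genes, against 26.9% of all tested genes. With MM-401 this held for 8 genes (17.8% of all), with EPZ5676 for 5 (33%) and with MI-2-2 for 10 (34.9%).

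Slc2a3 went the opposite way to its rise with EPZ5676 and MI-2-2. It was at 9.94 and 3.06 CPM with iBET, below 150 and 36.1 in DMSO, and fell by 3.85 (SE 0.73, adjusted p = 0.0158). Without DMSO replicate 2 it fell by 4.54 and without DMSO replicate 1 by 2.48, both called, but the call was lost without either iBET library and in the fit of the 2 groups alone. Pdk2, at 0.177 and 0.191 CPM with iBET, fell by 2.45 (SE 0.60, adjusted p = 0.0355), which was lost under 9 of 17 alternatives. Over the 17 its fall ranged from 1.48 to 3.01, the largest without DMSO replicate 2. Eno1, at 3.85 and 3.02 CPM, fell by 1.18 (SE 0.25, adjusted p = 0.0228), lost under 5 of 17 alternatives. Slc2a6 rose, as given above.

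The main enzymes illustrate the rest. Gpi1 was at 1645 and 1311 CPM in DMSO and 951 and 642 with iBET. Ldha was at 907 and 543 CPM with iBET, Tpi1 at 467 and 296 against 988 and 749 in DMSO, and Slc16a3 at 258 and 84.0 against 591 and 607. For each of these 4 genes both iBET libraries were below both DMSO libraries, and iBET replicate 2 was the lower of its pair. Pfkfb4, at 21.6 and 22.1 CPM, did not pass. With the replicate block 13 genes were called (23.8% of all tested genes), 1 upward and 12 downward. Under the block, Pgk1 fell by 1.43, Ldha by 1.40, Tpi1 by 1.22, Pfkp by 0.95 and Gpi1 by 0.91. Aldoa fell by 0.88, Hk2, the inducible hexokinase, by 0.84 and Pfkl by 0.59. Slc16a3 fell by 2.06, but it had been singled out for its replicate difference, so this value is only a description. The block also fits the same replicate step in every condition, while the ratio of replicate 2 to replicate 1 for Slc16a3 was 1.03 in DMSO and 0.326 with iBET. DESeq2 called 10 without a block (20.5% of the genes it tested). Around the pathway, 1 of 12 pentose phosphate genes fell with iBET (Prps1, by 0.74), and so did 1 of 19 tested other hypoxia response genes (Car12, a carbonic anhydrase, by 3.22). Of 12 regulators 3 rose, among them the coactivator Ppargc1a by 3.45. Over all tested genes, 6.38% rose and 7.54% fell with iBET.

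With MM-401 none of the 30 genes and 0% of all tested genes passed FDR 0.05 in edgeR. At an unadjusted p under 0.05 there were 2 of the 30 and 1450 of all. With the replicate block none passed FDR 0.05 either, of the 30 or of all, but 14 of the 30 and 2176 of all 12971 had an unadjusted p under 0.05. DESeq2 called 1 of the 32 genes with a read (2.26% of the genes it tested). The median log2 fold change of the 30 genes was -0.40, beside -0.01 over all genes. Slc2a6, at 24.3 and 13.5 CPM against 7.52 and 8.73 in DMSO, alone differed more than 2-fold in mean CPM. Ldha was at 1552 and 843 CPM, Pgk1 at 74.2 and 35.5 against 128 and 75.1, and Pdk1 at 194 and 108 against 316 and 203. For these 3 genes both MM-401 libraries lay below both DMSO libraries. Without DMSO replicate 1 the test called 2 of these genes with MM-401 (10.2% of all), and without DMSO replicate 2 it called none, of these or of all.

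A rule of size was also applied, at least a 2-fold difference between the mean CPM of the groups, here by total counts and after adding 0.1 CPM. It picked 6 of the 30 genes with EPZ5676 (26.8% of the genes considered), 12 with MI-2-2 (27.5%), 9 with iBET (14.9%) and 1 with MM-401 (6.44%). With MI-2-2 4 were higher and 8 lower. With TMM scaling 4 were higher and 3 lower with MI-2-2 (26.6% of the genes considered), the lower being Pdk1, Slc16a1 and Pgk1, while Ldha, Tpi1, Pfkp, Pfkm and Eno1 were no longer picked. With iBET 1 was higher and 8 were lower.

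Comparisons between inhibitors use no DMSO library in the contrast. EPZ5676 and MI-2-2 differed in none of the 30 genes (0.0154% of all tested genes, and 937 genes at an unadjusted p under 0.05, none of the 30 among them). iBET and MM-401 differed in 3 (11.4% of all), with 1 higher in iBET (5.48%) and 2 lower (5.96%). Slc2a3 was lower by a log2 difference of 3.72 (SE 0.73, adjusted p = 0.0185), against 90.0 and 80.9 CPM with MM-401. Slc2a6 was higher by 1.59 (SE 0.26, adjusted p = 0.0112), a call lost without MM-401 replicate 2 and without either iBET library, and Pfkfb3, at 170 and 203 CPM with MM-401 and 137 and 122 with iBET, was lower by 0.52 (SE 0.13, adjusted p = 0.0440), a call lost under 9 alternatives. The call of Slc2a3 was lost when any MM-401 or iBET library was left out. With the replicate block, 10 genes were called (19.0% of all), 9 of them lower with iBET. Slc16a3, among these, was lower by 1.32, only a description because it had been singled out for its replicate difference.

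The mean of EPZ5676 and MI-2-2 differed from MM-401 in 6 genes (42.2% of all tested genes), 5 higher (20.5%) and 1 lower (21.6%). These were Slc2a3 (log2 difference 3.20, SE 0.65), Pfkfb4 (2.19, SE 0.22), Pdk2 (1.78, SE 0.48), Slc2a6 (1.27, SE 0.24) and Pdk3 (0.97, SE 0.15), with Slc16a1 lower at -1.31 (SE 0.14). The calls of Slc2a3 and Pdk2 were lost without either MM-401 library, and that of Pdk2 also without EPZ5676 replicate 1. Over 17 alternatives their differences ranged from 3.07 to 3.30 and from 1.57 to 1.95. MM-401 left Slc16a1 at 143 and 118 CPM, within the range of DMSO, and Pfkfb4 at 35.3 and 30.1. Against iBET the same mean differed in 8 genes (45.7% of all), 7 higher (21.9%) and 1 lower (23.8%). Slc2a3 was higher by 6.93 (SE 0.81, adjusted p = 0.00056), from 3.06 to 9.94 CPM with iBET to between 628 and 873 with EPZ5676 and MI-2-2. Pdk2 was higher by 3.58 (SE 0.56), Pfkfb4 by 2.77 (SE 0.23), Gpi1 by 0.82 (SE 0.27), Hk1 by 0.77 (SE 0.25), Pdk3 by 0.75 (SE 0.15) and Hk2 by 0.70 (SE 0.25), and Slc16a1 was lower at -0.91 (SE 0.14). The calls of Gpi1, Hk1 and Hk2 were lost without either iBET library and with scaling by total counts. Under the replicate block 13 were called (54.5% of all), 11 of them higher than with iBET, among them Ldha by 0.58. Slc16a3 was higher by 1.41, again only a description.

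A further comparison followed from the replicate numbers. Slc16a3 had been singled out for a difference between them, so its values are a description. It was at 563 CPM in replicate 1 and 254 in replicate 2 with MM-401, 604 and 323 with EPZ5676, 510 and 268 with MI-2-2, and 258 and 84.0 with iBET. In DMSO it was at 591 and 607. Replicate 2 was thus lower with each of the 4 inhibitors, at 0.326 to 0.534 of replicate 1, and not in DMSO, where the ratio was 1.03.

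Slc16a3 was not alone. Of the 30 tested genes, 19 were lower in replicate 2 than in replicate 1 in all 5 conditions, against 13.3% of all tested genes, and 1 was higher in all 5, against 15.9%. That 1 was Bpgm, which makes 2,3-bisphosphoglycerate, with ratios of 1.09 to 1.39. Over the 4 inhibitors alone, 20 were lower in each (16.9% of all). Tested as a term beside the condition in the 8 inhibitor libraries, the replicate number called 15 of the 30 genes, all lower in replicate 2, where 6.23% of all 12836 tested genes were called lower. Without Slc16a3 these were 14. The median log2 difference over the 30 genes was -0.40, beside 0.00 over all genes. Over all 10 libraries 7 were called lower (0.809% of all). Leaving out both EPZ5676 libraries left 8 calls in the inhibitor libraries (0.935% of all genes in either direction). With all conditions but 1, edgeR called none without MM-401, EPZ5676 or MI-2-2, and 2 without iBET. Over all genes it then called 1, 0, 0 and 42. At an unadjusted p under 0.05 there were 19 of the 30 and 3395 of all genes with all 10 libraries, and DESeq2 called 15 (10.8% of the genes it tested).

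Of the genes for the steps from glucose to pyruvate, those called were lower in replicate 2. Aldoc showed the widest step, at 124 and 10.6 CPM in DMSO, 67.6 and 17.6 with MM-401, 99.9 and 31.8 with EPZ5676, 137 and 39.7 with MI-2-2, and 51.8 and 26.9 with iBET. In the inhibitor libraries it was lower in replicate 2 by 1.6 on the log2 scale (SE 0.14, adjusted p = 0.000674). Pgk1 had ratios of 0.474 to 0.587 over the 5 conditions and a log2 difference of -1.04 (SE 0.07, adjusted p = 0.000247). Slc2a1 was at 217 and 97.1 CPM with MM-401, 257 and 90.0 with EPZ5676, 253 and 117 with MI-2-2, and 160 and 101 with iBET, a log2 difference of -1.13 (SE 0.12, adjusted p = 0.0015). Pfkp had -1.10, Tpi1 -0.94, Pfkl -0.86, Aldoa -0.76, Pfkm -0.58, Gpi1 -0.53, Pkm -0.52, Hk2 -0.51 and Hk1 -0.34.

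At the pathway's exit, Ldha was lower in replicate 2 by 0.78 (SE 0.08, adjusted p = 0.00109) and Pdk1 by 1.14 (SE 0.17, adjusted p = 0.00669). Pdk1 was at 194 and 108 CPM with MM-401, 209 and 65.1 with EPZ5676, 165 and 61.4 with MI-2-2 and 188 and 128 with iBET. Of the genes called with EPZ5676 or MI-2-2, Pfkm was also called by replicate number. Slc2a3, Slc2a6, Pfkfb4, Slc16a1, Pdk2 and Pdk3 did not pass the replicate test in the inhibitor libraries, though Slc2a3 was lower in replicate 2 in all 5 conditions. Hk3, at 756 to 1103 CPM in them, did not pass either. Among the 4 Pfkfb genes none passed. Eno1, Gapdh, Pgam1 and the muscle enolase Eno3, at 3.91 to 10.2 CPM in the inhibitor libraries, did not pass either.

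**Figure D3:**
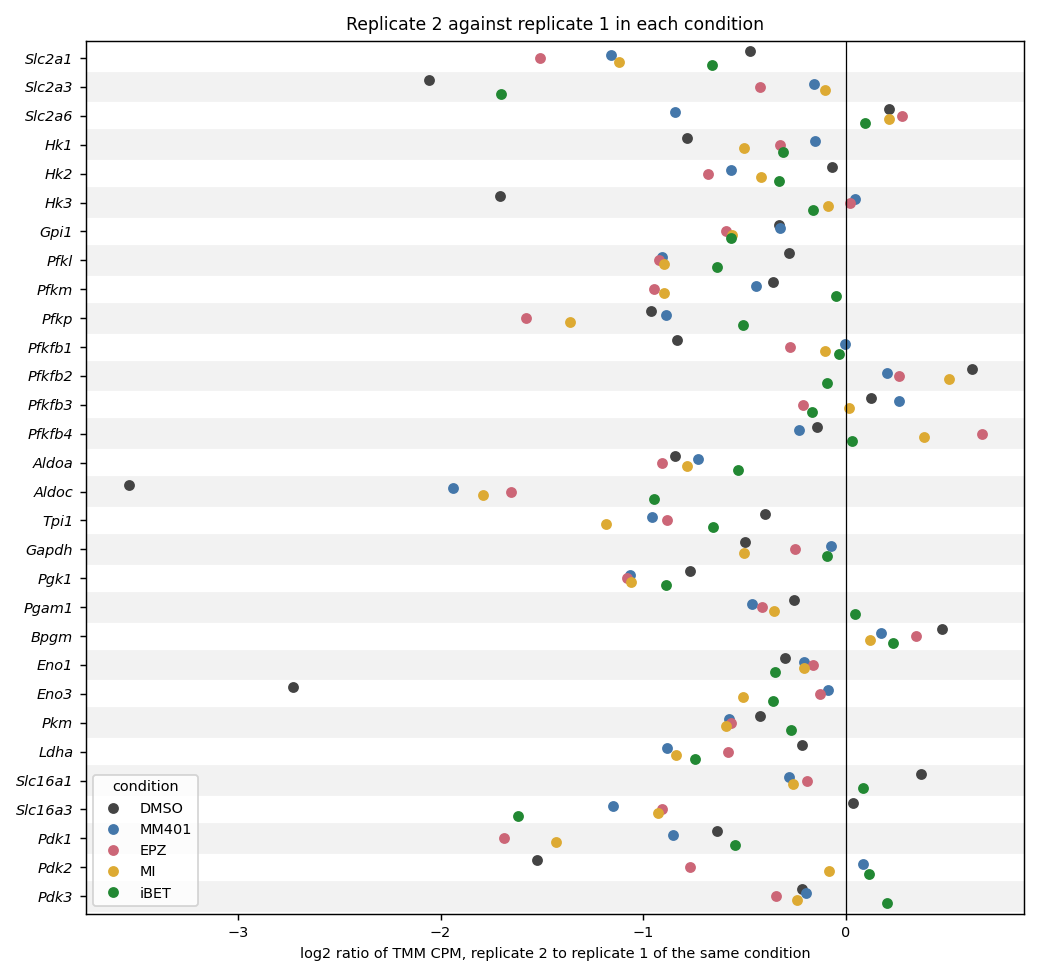
Log2 ratio of TMM-normalized CPM in replicate 2 to replicate 1 for the 30 tested genes (rows), with 1 point for each of the 5 conditions. All 5 points lay left of 0 for 19 genes, and Slc16a3 had its DMSO point near 0 and the 4 inhibitor points between 0.326 and 0.534 as plain ratios.

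Other genes known to rise in hypoxia, which are not part of the pathway, moved by replicate number as well. Of 19 tested, 14 were called in the inhibitor libraries and 11 over all 10, all lower in replicate 2. Over all tested genes, 6.23% and 0.809% were called lower. Bnip3, a mitophagy receptor, was at 66.1 and 15.1 CPM with MM-401, 87.2 and 16.8 with EPZ5676, 66.2 and 10.7 with MI-2-2, and 39.9 and 13.3 with iBET, a log2 difference of -2.20 (SE 0.15, adjusted p = 0.000289). The collagen prolyl hydroxylase gene P4ha2 had -3.64 and the adenylate kinase gene Ak4 had -3.26. The 20 genes of that list summed to 3626 and 1967 CPM in DMSO, 2335 and 1371 with MM-401, 3048 and 1834 with EPZ5676, 2992 and 1917 with MI-2-2, and 1897 and 1312 with iBET. Among regulators, the glucose uptake inhibitor Txnip had a log2 difference of -1.03 and Myc -0.47, and the other 10 tested did not pass. In the list of other glycolysis and transport genes, 3 of 16 tested were called in the inhibitor libraries, all lower in replicate 2. They were the weakly expressed Ldhd (-2.43), Fbp1 (-0.91) and Bsg, the chaperone of the lactate carriers (-0.47). Of 12 pentose phosphate genes only Pgm2 was called, at -0.85, and of 10 genes of pyruvate entry and its complex only Mpc2, which was higher in replicate 2 (0.32). None of the 9 neutrophil markers passed by replicate number, while 2 of 9 macrophage markers (Mrc1 and Ctss) were higher in replicate 2. Of 12 leukemia and progenitor markers, Mpo was higher (0.85) and Elane lower (-0.54) in replicate 2. The stromal marker Col1a1 was higher (1.49). The part of oxygen supply in this step was not tested, and the labels do not say how the replicates differed.

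**Figure D4:**
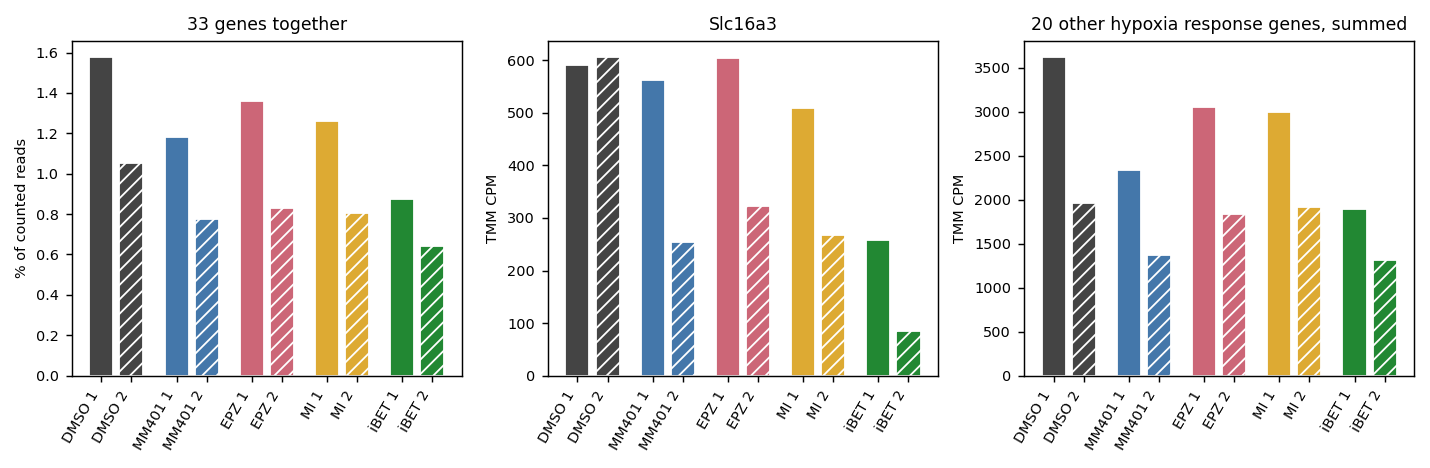
Share of counted reads taken by the 33 genes (left), CPM of Slc16a3 (middle) and summed CPM of 20 other hypoxia response genes (right) in each of the 10 libraries, replicate 2 hatched. Replicate 2 had the lower bar in each condition except for Slc16a3 in DMSO (591 and 607).

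The 250 bases before each listed start were searched for the 5-letter core ACGTG, which HIF1 binds, on both strands. A gene can have several starts, and it counted if the core lay before any of them. Sequences are those of RefSeq on GRCm38.p6, where 32 of the 33 genes were matched, all but Slc2a3. The core also lies within the E-box CACGTG, which MYC binds. It was found for 15 of the 32 genes (46.9%) and for 18.5% of all 27025 genes with a sequence. The 32 genes had 51 starts and all genes had 32851. Counted per start, the shares were 37.3% and 16.6%. Among the 15 genes called lower in replicate 2 of the inhibitor libraries it was found for 8 (53.3%), and among the 14 other tested genes for 7 (50%). The E-box CACGTG was found for 6 of the 32 genes (18.8%) and for 6.86% of all. A match is a description of letters and not a binding site. The promoters of Slc16a3 (chr11:120948817-120949066, plus strand), Pgk1 (chrX:106186850-106187099, plus strand) and Ldha (chr7:46845554-46845803, plus strand) are shown because these genes carried the step by replicate number and hold the core more than once. That of Pfkfb4 (chr9:108991652-108991901, plus strand) is shown too. This gene rose with EPZ5676 and MI-2-2, was not called by replicate number and holds no ACGTG. The promoters shown are picked examples and do not stand for a split between called and other genes. Hk2 was called by replicate number and also holds the core more than once, but is not shown. Tpi1, Pfkl, Pfkp, Pdk1, Aldoc, Gpi1 and Hk1 were called too, and the bases before their listed starts hold no core. Only ACGTG was searched for, and the sequence of Pfkfb4 does hold the similar GCGTG. Ldha has another listed start, and the bases before it hold no core. Capitals mark the core on either strand.
Slc16a3: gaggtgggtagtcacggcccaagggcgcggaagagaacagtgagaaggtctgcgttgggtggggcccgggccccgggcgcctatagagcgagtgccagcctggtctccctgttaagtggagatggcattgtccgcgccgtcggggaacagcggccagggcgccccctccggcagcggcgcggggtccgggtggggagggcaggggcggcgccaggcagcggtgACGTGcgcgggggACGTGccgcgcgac
Pgk1: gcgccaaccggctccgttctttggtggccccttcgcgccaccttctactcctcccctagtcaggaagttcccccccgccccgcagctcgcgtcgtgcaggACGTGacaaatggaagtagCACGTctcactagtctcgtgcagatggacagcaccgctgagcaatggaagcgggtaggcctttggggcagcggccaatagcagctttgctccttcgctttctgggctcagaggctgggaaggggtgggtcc
Ldha: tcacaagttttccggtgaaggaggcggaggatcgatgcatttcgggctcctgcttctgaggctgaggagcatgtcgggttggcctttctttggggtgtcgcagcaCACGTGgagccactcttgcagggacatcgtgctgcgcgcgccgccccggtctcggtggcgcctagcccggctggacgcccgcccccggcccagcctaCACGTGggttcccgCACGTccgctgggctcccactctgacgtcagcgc
Pfkfb4: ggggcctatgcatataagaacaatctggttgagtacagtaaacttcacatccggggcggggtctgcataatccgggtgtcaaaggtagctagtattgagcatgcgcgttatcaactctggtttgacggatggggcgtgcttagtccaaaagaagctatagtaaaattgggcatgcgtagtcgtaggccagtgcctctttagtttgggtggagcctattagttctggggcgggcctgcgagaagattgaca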

How the data were processed

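RNA was sequenced from MAF9 cells of 5 conditions with 2 libraries each. The authors deposited whole-number read counts per gene, without normalization, for 24015 gene symbols. The submitters' processing notes name mm9, TopHat2, Subread and DESeq without roles. No column of other samples was present.

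The genes and gene lists were chosen with earlier results of these data known. Every one of the 33 genes is named; a gene outside them is named only as 1 of up to 3 called genes per list and comparison with the largest fold changes, or as a marker or sex-linked gene that checks the labels. The values of a test are given where the gene was called. Genes were tested with edgeR 4.0.16 under R 4.3.3, after filterByExpr and TMM scaling, by glmQLFit and glmQLFTest in 1 fit of all 10 libraries with 1 coefficient per condition, over 12971 genes, with Benjamini-Hochberg adjustment within each comparison at 0.05. Replicate numbers were compared in fits of their own with a replicate term beside the condition, over all 10 libraries (12971 genes) or the 8 inhibitor libraries (12836 genes). All adjusted p-values come from these edgeR tests. SE is the log2 fold change divided by the square root of F. The script was tested on simulated data. The library totals set the precision, with 1 read worth 0.0339 to 0.0490 CPM.

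Labels give the conditions the same replicate numbers without saying what a number marks. Deviations of same-numbered libraries from their condition means correlated in each of 10 pairs of conditions (r = 0.278 to 0.666). The numbers were therefore treated as pairing the libraries, and a fit with the number as a block was made. DMSO replicate 2 stood apart from the other replicate 2 libraries in sex-linked reads, so its pairing with them is uncertain. Alternatives were total-count scaling, DESeq2 1.42.0 size factors or test, other filters, each library left out, and fits of fewer groups. A check on 1 marker list is not reported here.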

Additional observations from a re-analysis of the deposited data

How the results depend on the processing

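None of the 34 called fold changes of single genes changed sign under the alternatives run. With the replicate block the number of genes called against DMSO became 15 for MI-2-2, 13 for EPZ5676 and also 13 for iBET, with 10 between iBET and MM-401 and 13 between the mean of EPZ5676 and MI-2-2 and iBET; it lost none of the 34 calls on single genes and changed no other count by over 1.5 times. Total-count scaling gave 5 for the mean of EPZ5676 and MI-2-2 against iBET and 11 for the replicate number over all libraries. The DESeq2 test gave 10 with iBET, 1 with MM-401 and 15 for the replicate number over all libraries. Fits of the 2 groups alone gave 0 for iBET (0% of all tested genes), 3 for MI-2-2 (9.12%) and 3 for EPZ5676 (9.34%). They lost 11 of 17 calls. With 1 library left out, the counts ranged from 5 to 9 for EPZ5676, 4 to 10 for MI-2-2, 1 to 6 for iBET, 0 to 2 for MM-401, 0 to 4 between iBET and MM-401, 4 to 8 for the mean of EPZ5676 and MI-2-2 against MM-401 and 5 to 11 for it against iBET. The share of all genes called moved as well, from 19.7% to 51.0% for EPZ5676, 20.7% to 53.9% for MI-2-2 and 1.12% to 27.9% for iBET. Where that left 1 library in a group, its spread was assumed to be that of the other groups. Without DMSO replicate 2, iBET had 6 genes called, MI-2-2 had 7 and EPZ5676 had 5.

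Leaving out both libraries of 1 inhibitor was chosen after seeing the data. For the replicate number over all libraries it gave 0 without MM-401, 0 without EPZ5676, 0 without MI-2-2 and 2 without iBET, and in the inhibitor libraries 8 without EPZ5676. The 2-fold rule with TMM scaling picked 7 genes with MI-2-2. The causes were not tested. Pfkfb4, Slc16a1 and Slc2a6 kept their calls for EPZ5676 and MI-2-2 against DMSO under all 17 alternatives. At 2 libraries a condition, a gene that did not pass is not shown to be unchanged, and 1 read was worth at most 0.0490 CPM.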
